A study of Mus musculus with 6 samples.

Results

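The integrated stress response is read here through 10 genes picked by symbol, Atf4 itself and 9 genes that ATF4 is known to switch on or act beside, namely Ddit3, Trib3, Chac1, Asns, Psat1, Phgdh, Atf5, Sesn2 and Eif4ebp1. They are 10 of the 24736 gene symbols of the deposited table, chosen by name with earlier results of these data known, and all 10 had a mean level above the limit for testing. The levels are RNA-sequencing values of intestinal crypts, the epithelial pits that hold the stem cells, taken by EDTA over the whole length of the gut of male mice aged 12 weeks. Crypts of 3 WT mice were compared with crypts of 3 mice labelled Mtg16 KO, written here as Mtg16-/-, with 1 library per mouse and no other treatment of either group. The label of the second group speaks of a CRISPR knockout, while the methods of the study name Mtg16-/- mice obtained from another laboratory, and this was not resolved. In either case the loss was not limited to the epithelium by a Cre driver, as far as the sources say.

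Cells turn on the integrated stress response when they lack amino acids or heme, when unfolded protein builds up in the endoplasmic reticulum, or when a virus is sensed. Each of these signals has a kinase that phosphorylates the translation factor eIF2 on its alpha subunit, which slows protein synthesis in general but lets the mRNA of the transcription factor ATF4 be translated. ATF4 then pairs with C/EBP proteins on a DNA element and raises genes for amino acid import, amino acid synthesis and the charging of tRNA, and under lasting stress also genes of cell death. Because ATF4 is controlled largely by its translation, the mRNA of Atf4 alone says little of the protein, and the mRNA of its target genes is the usual readout.

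The element in question reads TGATGNAA, the core of the C/EBP-ATF response element, and it was searched on both strands of the 250 bases before each RefSeq start site (GRCm38.p6). A window was found for 9 of the 10 genes, and 2 of these 9, Asns and Chac1, held the element, compared with 2.41% of the 9533 tested genes that had a window and 3.91% of all 27025 genes searched. The windows of these 2 genes are printed to show the element in its setting, and those of Atf4 and Phgdh to show 2 members whose levels are described in detail and whose windows have no match. Capitals mark the element, and each sequence runs 5′ to 3′ on the strand of its gene and ends at the base before the start site. The windows are chr6:7693210-7693459, - strand, for Asns, chr2:119350992-119351241, + strand, for Chac1, chr3:98339970-98340219, - strand, for Phgdh, and chr15:80254934-80255183, + strand, for Atf4.
Asns: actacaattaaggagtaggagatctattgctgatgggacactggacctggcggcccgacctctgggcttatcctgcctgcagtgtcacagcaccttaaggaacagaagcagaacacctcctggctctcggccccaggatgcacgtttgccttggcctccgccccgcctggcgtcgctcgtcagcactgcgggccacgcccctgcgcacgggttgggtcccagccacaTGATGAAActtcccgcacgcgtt
Chac1: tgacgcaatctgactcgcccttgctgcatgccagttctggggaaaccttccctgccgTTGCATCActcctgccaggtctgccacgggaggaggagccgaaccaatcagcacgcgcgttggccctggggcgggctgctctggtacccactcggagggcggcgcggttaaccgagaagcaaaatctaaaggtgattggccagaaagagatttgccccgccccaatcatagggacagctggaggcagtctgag
Phgdh: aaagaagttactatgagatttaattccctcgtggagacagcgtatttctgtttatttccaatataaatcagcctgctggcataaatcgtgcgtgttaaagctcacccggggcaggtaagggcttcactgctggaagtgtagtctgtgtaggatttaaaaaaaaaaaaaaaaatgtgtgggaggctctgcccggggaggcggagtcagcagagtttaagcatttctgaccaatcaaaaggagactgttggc
Atf4: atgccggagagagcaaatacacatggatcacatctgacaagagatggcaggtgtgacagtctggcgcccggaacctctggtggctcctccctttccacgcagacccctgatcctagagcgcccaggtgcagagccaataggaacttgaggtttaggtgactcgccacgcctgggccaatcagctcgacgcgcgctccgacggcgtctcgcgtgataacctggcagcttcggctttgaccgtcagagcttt
In Asns the element begins 23 bases before the start site and reads TGATGAAA, and in Chac1 it begins 193 bases before and lies on the opposite strand as TGATGCAA. A match of these letters is a description of the window and was not tested as a binding site, and elements farther out were not searched.

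Among the other lists of the pathway, the aminoacyl-tRNA synthetases known as ATF4 targets had the element most often, in 3 of 9 genes with a window. The transcription factors that act beside ATF4 came close, with 3 of 11, and the enzymes of transamination, cysteine and methionine had it in 2 of 10. None of the 5 other synthetases with a window had it, and these shares were not tested. The stretches around the element are printed for the 3 synthetases and for Got1 and Pycr1, to show the strand and distance of each match. Got1 and Pycr1 are enzymes of aspartate and proline metabolism whose levels are given further on, and matches in other listed genes are not printed. On GRCm38.p6 the elements lie at chr8:111033730-111033737 (112 bases before the start site, gene on the + strand) for Aars, chr6:55037971-55037978 (30 bases before the start site, gene on the + strand) for Gars, chr15:11399666-11399673 (15 bases before the start site, gene on the - strand) for Tars, chr19:43524700-43524707 (102 bases before the start site, gene on the - strand) for Got1 and chr11:120643844-120643851 (103 bases before the start site, gene on the - strand) for Pycr1.
Aars: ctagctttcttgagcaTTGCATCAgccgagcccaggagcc
Gars: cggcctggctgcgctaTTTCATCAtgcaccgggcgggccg
Tars: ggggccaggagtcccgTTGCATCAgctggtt
Got1: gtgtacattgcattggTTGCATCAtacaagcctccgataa
Pycr1: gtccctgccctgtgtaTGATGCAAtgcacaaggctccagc

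Values are TPM, transcript abundances estimated with RSEM, in which each gene is scaled by its length and each library to a common total. Read numbers cannot be had from them, so depth is unknown and no interval for counting error is given. Libraries correlated with r between 0.931 and 0.980 across genes. The targeted gene, Cbfa2t3, which encodes MTG16, had a TPM of 3.67, 6.69 and 4.52 in WT and 4.62, 6.43 and 3.23 in Mtg16-/-. Its gene-level value did not separate the genotypes, and every direction below rests on the labels. Epcam, a marker of epithelium in general, was at 1087 to 1375 TPM, and Olfm4, a crypt base marker, at 647 to 1611 TPM. Lgr5, a stem cell marker, was at 6.02 to 20.2 TPM, and Apoa1, an enterocyte marker, at 1570 to 9430 TPM. The libraries thus held much enterocyte RNA beside that of the crypt base marker Olfm4. That they were taken as crypts is known from the label, and how much of the RNA came from crypts was not measured. Col1a1 of stromal cells was at most 1.32 TPM. White blood cell markers were present, and their 9 genes summed to between 165 and 381 TPM in WT and between 99.8 and 243 TPM in Mtg16-/-, with Gzma of cytotoxic lymphocytes at 43.3 to 275 TPM and Ptprc at 4.91 to 17.1 TPM. Summed levels of cell type markers, given here without a test, were as follows. The summed TPM of 12 enterocyte markers ran from 12020 to 35540 in WT and from 6194 to 12260 in Mtg16-/-, with WT replicate 1 far above the other 5 libraries and a small overlap. The 9 Paneth cell markers summed to between 9894 and 22730 TPM in WT and between 27410 and 34850 in Mtg16-/-, and the 9 stem and progenitor markers to between 1089 and 1822 and between 1877 and 2500. Enteroendocrine markers (7 of 7 tested higher) summed to between 236 and 296 TPM in WT and between 384 and 415 in Mtg16-/-, and tuft cell markers (4 of 4 lower) to between 32.6 and 66.3 and between 26.1 and 33.5. The stem, Paneth and enteroendocrine sums did not overlap between the groups. Sums of tuft cell, goblet cell, general epithelial, white blood cell and stromal markers overlapped between the groups. Of the 7 goblet cell markers 5 were lower and 2 higher, and 2 of them, Zg16 and Clca1, were lower without overlap (11.1% of all tested genes). All 12 enterocyte markers were lower, all 9 Paneth markers higher and 8 of 9 stem markers higher, and no marker of these lists was at 0 in any library. In whole crypts, fewer cells of a type and less RNA per cell cannot be told apart, and the part of these shifts in the values below was not tested.

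Of the 10 genes, 9 had a lower mean level in Mtg16-/- crypts and 1, Sesn2, a slightly higher one. Of all tested genes 53.6% were lower, and the counts of lower genes in the lists below stand beside the same share. None of the 10 passed the test across the table, limma's moderated test on log2(TPM + 1) at a Benjamini-Hochberg adjusted p under 0.1. Only 0.0326% of the 12268 tested genes passed it. At an unadjusted p under 0.05, 3 of the 10 were lower (Phgdh, Atf4 and Ddit3) against 8.05% of all tested genes. In 4 of the 10 (those 3 and Asns) every Mtg16-/- library lay below every WT library, which was so for 11.1% of all tested genes. The median log2 fold change of the 10 was -0.31, where that of all tested genes was -0.03. Without WT replicate 2 the median of the 10 was -0.15, and 9 were still lower in each of the 6 fits that left out 1 library. All fold changes are of Mtg16-/- relative to WT on the log2(TPM + 1) scale, which understates differences at low TPM.

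**Figure D1:**
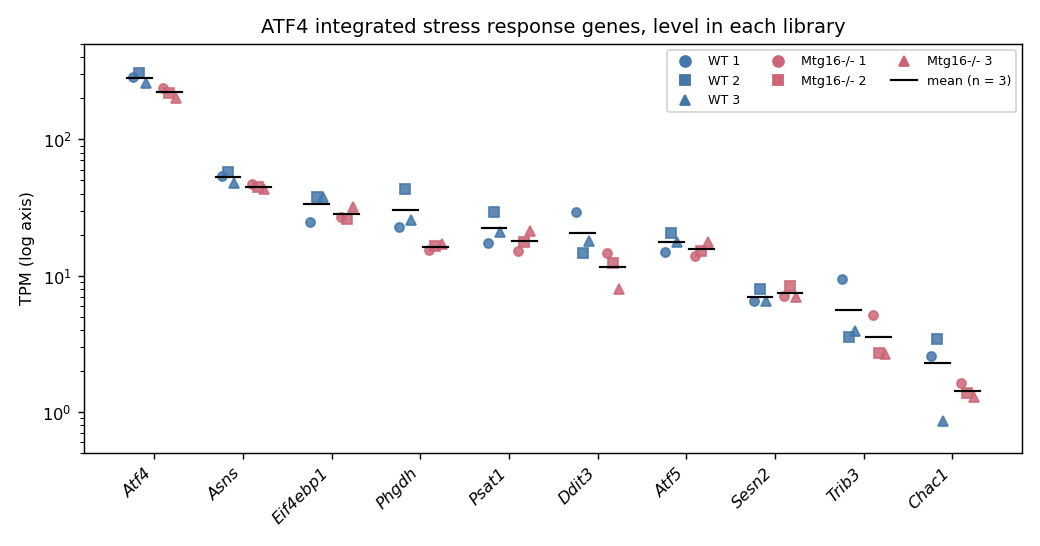
TPM of each of the 10 genes on a log axis, ordered by the WT mean, with 1 point per library, a shape per replicate number and a bar at the mean of 3. Atf4 stands far above the rest at 202 to 304 TPM, and in Atf4, Asns, Phgdh and Ddit3 the 3 Mtg16-/- points all lie below the 3 WT points.

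Levels ran from 0.86 TPM for Chac1 to 304 TPM for Atf4. Atf4 was by far the most abundant, with place 549 among the 12268 tested genes by mean TPM, and Asns came next in all 6 libraries. Eif4ebp1, Phgdh, Psat1, Ddit3 and Atf5 followed in WT, with means of 33.6, 30.5, 22.4, 20.6 and 17.7 TPM. In that order only Phgdh over Psat1 held in all 3 WT libraries, and for the other neighbours the higher mean came with the higher value in 2 of 3. In Mtg16-/-, Psat1 had the higher mean, 18.1 against 16.3 TPM for Phgdh, and was above it in 2 of 3 libraries. Sesn2, Trib3 and Chac1 were the lowest, with WT means of 6.99, 5.65 and 2.29 TPM.

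Atf4 (chromosome 15, 80255184 to 80257545) is the transcription factor at the center of the response. WT crypts measured 284, 304 and 257 TPM and Mtg16-/- crypts 239, 220 and 202 TPM. All 3 Mtg16-/- values were below the lowest WT value, and both groups were tight. The means were 282 ± 23.7 and 221 ± 18.5 TPM (SD, n = 3 each), so that the Mtg16-/- mean was 78.3% of the WT mean. On the log2 scale the difference was -0.35 (standard error, SE, 0.13, 95% interval -0.65 to -0.05), with an adjusted p of 0.305 from limma. It stayed between -0.42 and -0.25 over the alternatives of processing, the smallest of them after quantile normalization.

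Ddit3, Trib3 and Chac1 stand for the arm of the response that goes with lasting stress. Ddit3 (chromosome 10, 127290793 to 127296291) encodes CHOP, a transcription factor that favors cell death. Its TPM was 29.2, 14.7 and 18.0 in WT and 14.6, 12.3 and 7.99 in Mtg16-/-. The groups did not overlap, but the lowest WT value, 14.67, lay just above the highest Mtg16-/- value, 14.60. On the log2 scale the difference was -0.76 (SE 0.29, limma adjusted p = 0.309), and without WT replicate 1, the library with the highest Ddit3, it was -0.49. Trib3 (chromosome 2, 152337425 to 152344060) encodes a pseudokinase that CHOP and ATF4 induce and that dampens both. It had a TPM of 9.48, 3.55 and 3.91 in WT and 5.19, 2.72 and 2.67 in Mtg16-/-. In each group replicate 1 was the high library, and the groups overlapped through it. The log2 difference of -0.49 (SE 0.36, limma adjusted p = 0.532) became -0.11 without WT replicate 1. Chac1 (chromosome 2, 119351242 to 119354326) encodes an enzyme that breaks down glutathione. With a TPM of 2.56, 3.44 and 0.86 in WT and 1.64, 1.38 and 1.29 in Mtg16-/-, it was near the limit for testing and spread widely among the WT mice. The log2 difference was -0.34 (SE 0.33, limma adjusted p = 0.630), and it ran from -0.71 without WT replicate 3 to -0.08 without WT replicate 2.

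The level of Ddit3 relative to Atf4 varied within each group. Per unit of Atf4 TPM, WT crypts had 0.103, 0.0483 and 0.0701 of Ddit3 and Mtg16-/- crypts 0.0610, 0.0560 and 0.0395, so the groups overlapped. Asns was at 0.188, 0.190 and 0.188 of the Atf4 level in WT and at 0.195, 0.202 and 0.215 in Mtg16-/-. The SD was 0.00128 in WT and 0.0101 in Mtg16-/- (n = 3 each). This ratio varied less within a group, but it was not the same in both, as all Mtg16-/- values were on top. Neither ratio was tested, and the share of other gene pairs without overlap was not computed.

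Asns, Psat1 and Phgdh encode enzymes of amino acid synthesis. Asns (chromosome 6, 7675165 to 7693209), asparagine synthetase, whose window holds the element next to the start site, had a TPM of 53.5, 57.8 and 48.2 in WT and 46.7, 44.4 and 43.5 in Mtg16-/-. The groups stood apart by a small margin, and the Mtg16-/- mean was 84.4% of the WT mean. The log2 difference was -0.24 (SE 0.12, 95% interval -0.51 to 0.04, limma adjusted p = 0.390), and after median-ratio rescaling or quantile normalization the groups overlapped. Phgdh (chromosome 3, 98313171 to 98339969) encodes phosphoglycerate dehydrogenase, the first enzyme of serine synthesis from glucose. Its TPM was 22.8, 43.3 and 25.5 in WT and 15.3, 16.5 and 17.1 in Mtg16-/-. WT replicate 2 stood out as high, the Mtg16-/- libraries lay close together, and the groups did not overlap. Phgdh had the lowest log2 fold change of the 10 genes, -0.81 (SE 0.23, 95% interval -1.34 to -0.28), an unadjusted p of 0.00755 and an adjusted p of 0.263 from limma. Without WT replicate 2 the value was -0.54, and the groups were still apart. Psat1 (chromosome 19, 15905123 to 15925059) encodes the aminotransferase that follows. It had a TPM of 17.4, 29.1 and 20.8 in WT and 15.2, 17.7 and 21.4 in Mtg16-/-, so the groups overlapped. The log2 difference was -0.28 (SE 0.21, limma adjusted p = 0.542), and -0.08 without WT replicate 2, again the highest library. The ratio of Phgdh to Psat1 was 1.31, 1.49 and 1.23 in WT and 1.01, 0.933 and 0.801 in Mtg16-/-, and the groups did not overlap in it. It was not tested, and the share of other gene pairs without overlap was not computed.

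Atf5, Sesn2 and Eif4ebp1 link the response to other programs, and none of them separated the groups over all 6 libraries. Atf5 (chromosome 7, 44812256 to 44816658), a transcription factor related to ATF4 that acts in mitochondrial stress, had a TPM of 15.03, 20.4 and 17.7 in WT and 14.1, 15.1 and 17.7 in Mtg16-/-, or -0.17 on the log2 scale (SE 0.16, limma adjusted p = 0.621). This was -0.28 without WT replicate 1, where the groups no longer overlapped, and -0.068 without WT replicate 2. Sesn2 (chromosome 4, 132492804 to 132510456) encodes Sestrin2, a sensor of leucine that restrains the growth kinase complex mTORC1. With a TPM of 6.52, 7.97 and 6.48 in WT and 7.11, 8.41 and 7.02 in Mtg16-/-, it was the member with the reverse sign, at 0.09 (SE 0.16, 95% interval -0.27 to 0.45, limma adjusted p = 0.799), and its sign held in each alternative with values between 0.02 and 0.18. Eif4ebp1 (chromosome 8, 27260327 to 27275656) encodes 4E-BP1, which mTORC1 inactivates and which holds back cap-dependent translation. Its TPM was 24.9, 37.9 and 38.1 in WT and 26.8, 26.0 and 32.0 in Mtg16-/-. WT replicate 1 was the lowest of the 6 libraries and the other WT libraries the highest, and the log2 fold change went from -0.22 (SE 0.19, limma adjusted p = 0.582) to -0.42 without WT replicate 1, where the groups no longer overlapped, and to -0.12 without WT replicate 2 or 3.

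**Figure D2:**
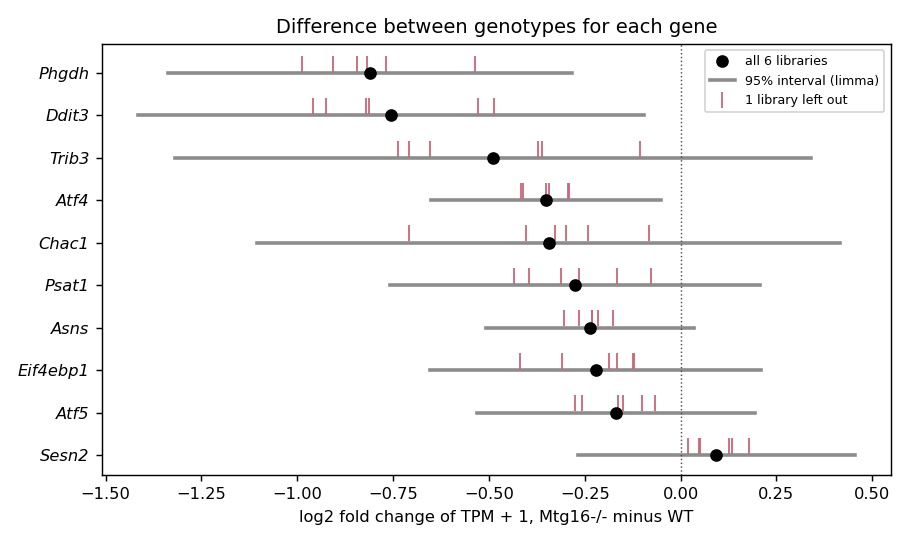
Log2 fold change of TPM + 1, Mtg16-/- minus WT, for each gene (black point), with limma's 95% interval (grey line) and the values with 1 of the 6 libraries left out (red ticks). The intervals of Phgdh, Ddit3 and Atf4 lie below 0, and the ticks of Trib3 and Chac1 spread most widely.

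The libraries did not line up in 1 order for all members. WT replicate 2 was the highest of the 6 libraries in 6 of the 10 genes and WT replicate 1 in 2 of them. WT replicate 1 was the top library for Ddit3 and Trib3 but the lowest for Eif4ebp1, and WT replicate 3 was the lowest for Sesn2 and Chac1. Mtg16-/- replicates 1 and 3 were the lowest in 3 and 4 genes. The 10 genes summed to 466, 522 and 436 TPM in WT and to 386, 364 and 353 TPM in Mtg16-/-, sums that are made up mostly of Atf4. An exact permutation test on each gene, two-sided, gave p = 0.1 for the 4 genes whose groups did not overlap, the smallest that 3 against 3 mice allow, and between 0.3 and 0.5 for the other 6.

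Upstream of ATF4, each of the 4 eIF2 kinases overlapped between the groups. The list for phosphorylation of eIF2, its removal and the exchange factor eIF2B held 16 genes, among them Eif2a, which has none of these roles. The 16 had a median log2 fold change of -0.07, with 10 lower and 6 higher. None was called, 2 were lower at an unadjusted p under 0.05 (8.05% of all tested genes), and 1, Eif2a, was higher (6.53%). The groups did not overlap in 1 lower gene and 1 higher gene, again Eif2a (11.1% and 9.94% of all tested genes). Eif2ak4, the kinase GCN2 that senses uncharged tRNA, had a TPM between 5.84 and 8.36 in WT and between 5.92 and 8.01 in Mtg16-/- (log2 fold change -0.08, limma adjusted p = 0.863). Eif2ak3, the kinase PERK of the endoplasmic reticulum, was at 26.8, 21.5 and 21.3 TPM in WT and 22.2, 19.5 and 14.7 in Mtg16-/- (-0.30, limma adjusted p = 0.448). These kinases were named outside the rule for named genes, after their values were seen. By the rule, Dnajc3, an endoplasmic reticulum cochaperone that inhibits eIF2 kinases, had a TPM of 69.3, 61.1 and 66.2 in WT and 45.5, 49.4 and 46.7 in Mtg16-/- (-0.46, SE 0.11, limma adjusted p = 0.235). Eif2a, which encodes the separate initiation factor eIF2A and not the phosphorylated subunit, was at 40.1, 46.3 and 50.7 TPM in WT and 64.6, 65.8 and 84.5 in Mtg16-/- (0.63, SE 0.15, limma adjusted p = 0.233). The phosphorylated subunit itself, Eif2s1, had a log2 fold change of 0.03.

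The transcription factors that pair with ATF4 or act beside it were split, with 6 of 12 lower, 6 higher and a median of -0.04, which was 0.035 after quantile normalization. None was called, 1 was lower at an unadjusted p under 0.05 (8.05% of all tested genes), and 2 were lower without overlap (11.1%). Of these, Nfe2l2, the NRF2 factor of oxidative stress, had a TPM of 258, 182 and 204 in WT and 171, 149 and 167 in Mtg16-/- (-0.39, SE 0.16, limma adjusted p = 0.318). Xbp1, a factor of the unfolded protein response and of secretory cells, had a log2 fold change of -0.13 (limma adjusted p = 0.613) with a narrow gap between the groups, and of 0.017 after quantile normalization.

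The aminoacyl-tRNA synthetases known as ATF4 targets, which load amino acids on tRNA, had lower means in 11 of 13 genes of the list, Xpot for tRNA export included. Whether ATF4 acts on them in these crypts was not tested. The median log2 fold change was -0.21. None was called, 5 of the 13 were lower at an unadjusted p under 0.05 against 8.05% of all tested genes, and 8 were lower without overlap against 11.1%. Cars, for cysteine, came closest to the threshold of any gene in these lists outside the endoplasmic reticulum. It had a TPM of 33.5, 37.6 and 37.1 in WT and of 20.5, 19.7 and 21.5 in Mtg16-/-, or -0.78 on the log2 scale (SE 0.12, limma adjusted p = 0.104). Aars, for alanine, was at 68.8, 73.7 and 75.4 TPM in WT and 53.1, 52.1 and 46.8 in Mtg16-/- (-0.51, SE 0.11, limma adjusted p = 0.223). Yars, for tyrosine, was at 40.3, 51.1 and 47.7 TPM in WT and 30.6, 35.5 and 34.4 in Mtg16-/- (-0.45, SE 0.13, limma adjusted p = 0.264). In Cars and Aars the gap between the groups was wider than the range within either, and in Yars it was narrower than the range of the WT libraries.

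The 8 cytosolic synthetases that are not known as ATF4 targets were split, 4 lower and 4 higher, with a median of 0.03. Qars, for glutamine, had a TPM of 134, 122 and 145 in WT and 176, 175 and 156 in Mtg16-/- (0.33, SE 0.12, limma adjusted p = 0.304), and Kars, for lysine, was at 0.24 (limma adjusted p = 0.451). Both were higher without overlap, no gene of the 8 was called, and 1 was higher at an unadjusted p under 0.05, where 9.94% of all tested genes were higher without overlap and 6.53% at that p. The difference between these lists was not tested.

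**Figure D3:**
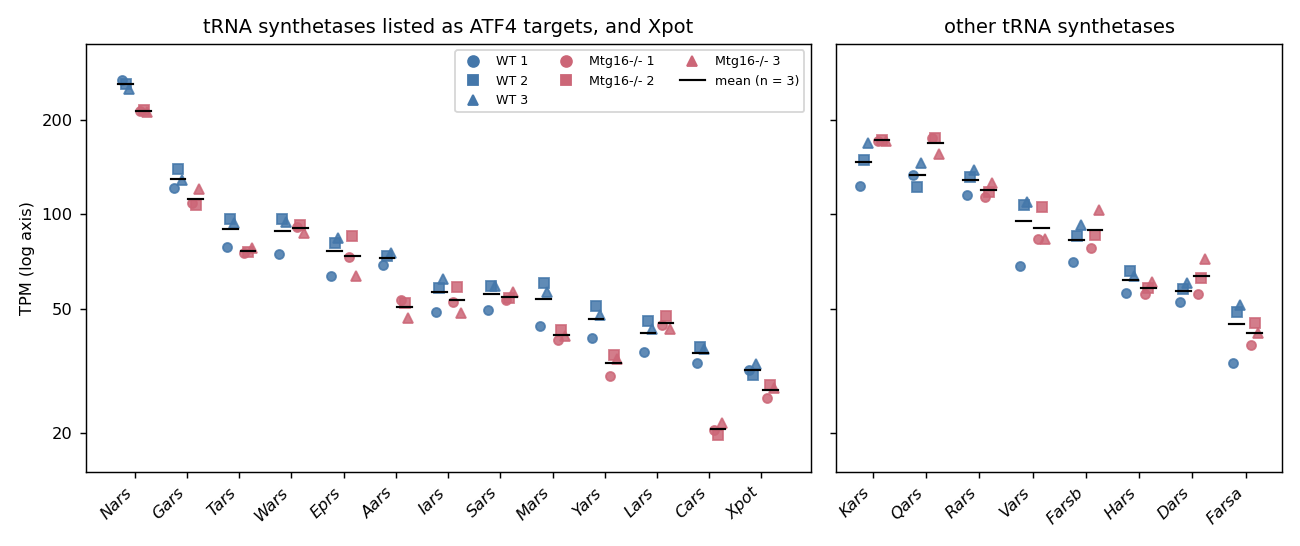
TPM on a log axis of the 13 genes of the list of synthetases known as ATF4 targets (left, Xpot included) and of the 8 other cytosolic synthetases (right), with 1 point per library and a bar at the mean of 3. On the left 8 genes, Cars, Aars, Yars and Nars among them, have all Mtg16-/- points below the WT points, and on the right Qars and Kars have their Mtg16-/- points on top.

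Enzymes that continue from serine into glycine and the mitochondrial folate cycle were spread around 0. Of 13 genes, 12 were tested, with 7 lower, 5 higher and a median of -0.08 (0.012 after quantile normalization). No gene was lower or higher without overlap (11.1% and 9.94% of all tested genes), in a list too short to tell this from those shares. None was called, and 1 was lower and 1 higher at an unadjusted p under 0.05 (8.05% and 6.53% of all tested genes). Those were Mthfd2, a mitochondrial folate enzyme, at -0.50 (limma adjusted p = 0.335) and Pycr1, a proline enzyme with the element in its window, at 0.54 (limma adjusted p = 0.341). Psph, the last enzyme of serine synthesis, had a TPM of 6.84, 9.74 and 7.04 in WT and 7.43, 7.92 and 9.14 in Mtg16-/- (0.06, limma adjusted p = 0.898). These 3 genes were named after their values were seen. The 3 enzymes of serine synthesis, Phgdh, Psat1 and Psph, had log2 fold changes of -0.81, -0.28 and 0.06. The 95% intervals were -1.34 to -0.28, -0.76 to 0.21 and -0.35 to 0.46 and overlapped, and differences between the enzymes were not tested. Without WT replicate 2 the values of Phgdh and Psat1 were -0.54 and -0.08.

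Among the 12 tested enzymes of transamination, cysteine and methionine, 10 were higher and 2 lower, with a median of 0.11. None was called, and 1 was lower and 1 higher at an unadjusted p under 0.05 (8.05% and 6.53% of all tested genes). Without overlap, 1 was lower and 2 higher (11.1% and 9.94%). Got1, the cytosolic aspartate aminotransferase, whose window has the element, was the exception in size, with a TPM of 118, 78.9 and 99.5 in WT and 58.9, 55.6 and 50.3 in Mtg16-/- (-0.82, SE 0.16, limma adjusted p = 0.171). Cth, which makes cysteine from cystathionine, had a TPM of 57.5, 52.8 and 71.1 in WT and 71.2, 80.4 and 93.8 in Mtg16-/- (0.43, SE 0.16, limma adjusted p = 0.302), and Cbs, the enzyme before it, was at 0.42 (limma adjusted p = 0.431) from levels of at most 2.87 TPM. Both were higher without overlap, though in Cth by a margin of 0.13 TPM.

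Amino acid transporters of the response had lower means in 7 of 10 tested genes, with a median of -0.19. None was called, and 2 were lower at an unadjusted p under 0.05 (8.05% of all tested genes) and without overlap (11.1%). The median was -0.29 without WT replicate 1 and -0.095 without Mtg16-/- replicate 3. These were the subunits of 1 exchanger for large neutral amino acids. The light chain Slc7a5 had a TPM of 16.3, 26.7 and 21.3 in WT and 13.4, 16.1 and 14.7 in Mtg16-/- (-0.49, SE 0.19, limma adjusted p = 0.311). The heavy chain Slc3a2, which other light chains share, was at 209, 124 and 147 TPM in WT and 112, 84.6 and 75.2 in Mtg16-/- (-0.80, SE 0.22, limma adjusted p = 0.263). WT replicate 1, the library with the highest enterocyte markers, was highest in Slc3a2 and lowest of the WT libraries in Slc7a5. Slc7a11, the cystine transporter often used as a readout of ATF4, was at most 0.35 TPM in any library and was not tested.

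Of the 9 tested inhibitors of mTORC1 and relatives of 4E-BP1, 4 were lower and 5 higher, with a median of 0.02. None was called, and 1 was lower and 2 higher at an unadjusted p under 0.05 (8.05% and 6.53% of all tested genes). Ddit4, which encodes REDD1 and is an ATF4 target, had a TPM of 19.3, 23.8 and 23.3 in WT and 24.8, 32.7 and 29.8 in Mtg16-/- (0.38, SE 0.15, limma adjusted p = 0.315). Deptor, an inhibitory subunit bound to mTOR, was at 0.58 (SE 0.15, limma adjusted p = 0.254) and Gatsl2, a member of the CASTOR family, at -1.09 (SE 0.39, limma adjusted p = 0.297). The groups did not overlap in these 3 genes, 1 lower and 2 higher (11.1% and 9.94% of all tested genes).

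With 1 library left out, the medians of the mTORC1 list, the other synthetases, the transcription factors, the serine and folate enzymes, the mitochondrial list and the stress-induced targets described next took either sign. Without WT replicate 1, the log2 fold changes of Gatsl2, Nfe2l2, Cbs and Kars were -0.66, -0.25, 0.23 and 0.11, and without WT replicate 2 that of Slc7a5 was -0.32.

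The remaining 21 stress-induced targets of ATF4 or CHOP had 17 tested members, 10 lower and 7 higher, with a median of -0.08. None was called, and 1 was lower and 2 higher at an unadjusted p under 0.05 (8.05% and 6.53% of all tested genes). Without overlap, 2 were lower and 3 higher (11.1% and 9.94%). Vegfa, an angiogenic growth factor, was at 73.5, 36.1 and 43.8 TPM in WT and 35.1, 29.2 and 18.1 in Mtg16-/- (-0.86, SE 0.31, limma adjusted p = 0.297), and the value was -0.57 without WT replicate 1. Ndrg1 and Map1lc3b, a stress-responsive gene and an autophagosome protein, were at 0.38 and 0.34 (limma adjusted p = 0.286 and 0.284). Fgf21, a secreted factor often taken as a readout of the response, was listed at 0 in 5 of the 6 libraries and at 0.27 TPM in WT replicate 2.

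Mitochondrial stress and the unfolded protein response lie next to ATF4, and their lists are set side by side without a test of the difference. The 10 mitochondrial chaperones and proteases had a median of -0.03 (0.052 after quantile normalization), with 6 lower and 4 higher. No gene was lower or higher at an unadjusted p under 0.05 (8.05% and 6.53% of all tested genes). No gene was so without overlap (11.1% and 9.94%), in a list too short to tell this from those shares. In the list of 19 genes for endoplasmic reticulum chaperones and the unfolded protein response, 18 were lower, with a median of -0.64, 13 were lower at an unadjusted p under 0.05 (8.05% of all tested genes) and 14 without overlap (11.1%). The only called gene was Creld2, at 104, 105 and 132 TPM in WT and 50.1, 50.4 and 51.0 in Mtg16-/- (-1.15, SE 0.13, limma adjusted p = 0.0894), and Hyou1 and Sdf2l1, chaperones of the same organelle, were at -0.99 and -0.97 (limma adjusted p = 0.104 each). The call of Creld2 was lost in 9 of 14 alternatives, in each of which its log2 fold change was between -1.20 and -1.03, with adjusted p-values from 0.102 without WT replicate 3 to 0.480 without Mtg16-/- replicate 2.

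**Figure D4:**
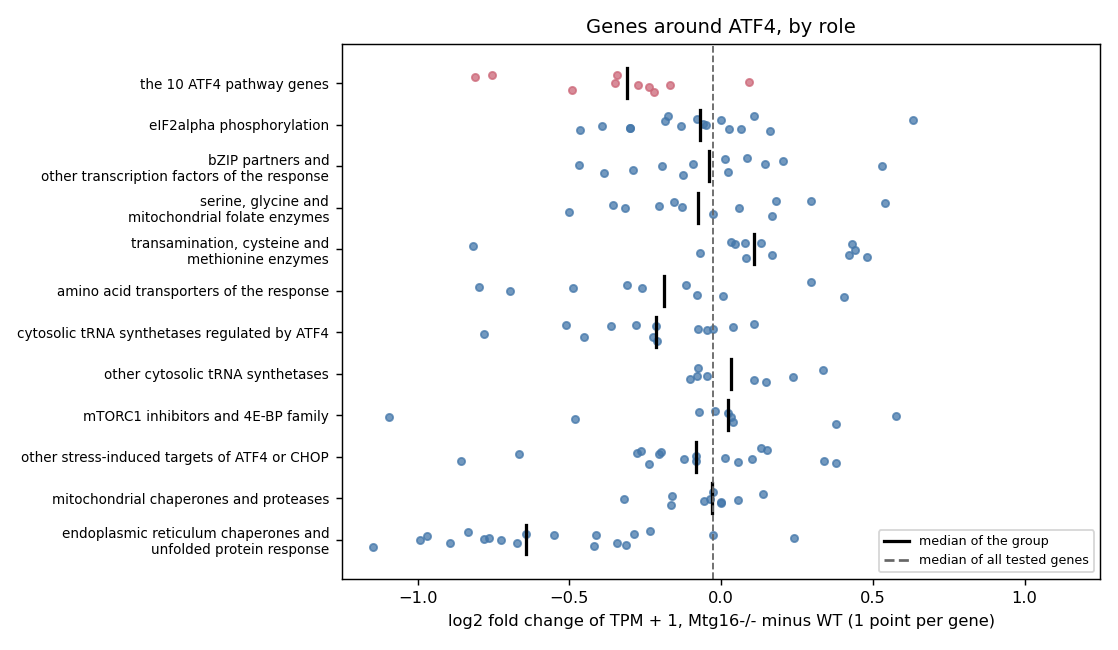
Log2 fold change of TPM + 1, Mtg16-/- minus WT, with 1 point per tested gene, a black bar at the median of each group of genes and a dashed line at -0.03, the median of all 12268 tested genes. The 10 ATF4 pathway genes have their median at -0.31 and the synthetases known as ATF4 targets at -0.21, most other groups lie near the dashed line, and the endoplasmic reticulum genes lie lowest at -0.64.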

How the data were processed

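Crypt RNA of 3 WT and 3 Mtg16-/- mice was sequenced by the authors after depletion of ribosomal RNA. They deposited 1 table of TPM values by gene symbol, rounded to 2 decimals. The submitters' processing notes list cutadapt 1.9.1, STAR 2.5.2a, RSEM 1.3.0, DESeq2 1.12.3 and mm10 without roles. DESeq2 needs counts and was not run. Strand setting and annotation are not given in the sources used here.

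Values were taken as log2(TPM + 1). The 12268 genes with a mean of at least 1 TPM were fitted with limma 3.58.1 (lmFit, eBayes with trend, R 4.3.3), Mtg16-/- against WT, without covariates, and called at a Benjamini-Hochberg adjusted p under 0.1. An exact permutation test (two-sided) was also run on single genes. No source names litters, days or batches. The p-values measure the spread between these mice. The calculation was tested on simulated data, with added differences larger than any log2 fold change given here. It therefore does not tell whether differences of the size described would be called.

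The 10 genes and the pathway and marker lists, which come from general knowledge, were chosen with earlier results of these data known. Named besides the 10 genes are, from each list, the called genes or, where under 3 were called, up to 3 non-overlapping genes taken by size of change. Counts of lower and of non-overlapping members and the values of the other genes named by rule were added to the alternatives after the data were seen. Other alternatives were a pseudocount of 0.1, no filter, a mean of at least 5 TPM, median-ratio and quantile scaling, no trend, robust moderation, a replicate block, each mouse left out and a threshold of 0.05. Positions and promoter windows are from RefSeq GRCm38.p6, whose coordinates are those of mm10; chromosome 18 was left out of the promoter search.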

Additional observations from a re-analysis of the deposited data

How the results depend on the processing

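None of the 10 genes was called in 14 of 15 alternatives, and the sign of each gene held in every alternative in which it was tested. Of the other genes named by rule, Xbp1 alone changed sign, to 0.017 after quantile normalization, and the call of Creld2 was lost in 9 of 14 alternatives (adjusted p from 0.00476 to 0.480 over all 14, limma). The count of genes called over the whole table, 4, was 0 without the filter on low values, 15 with a mean of at least 5 TPM (which left 8 of the 10 genes, 7 of them lower), 1 after median-ratio rescaling, 1 after quantile normalization, 0 without the intensity trend, 20 with robust moderation and 0 at an adjusted p under 0.05. With each mouse left out it ran from 0 (without Mtg16-/- replicate 3) to 40 (without WT replicate 1). The median log2 fold change of the 10 genes ran from -0.36 to -0.15 over these fits, that of the eIF2 genes from -0.16 to -0.064 and that of the endoplasmic reticulum genes from -0.65 to -0.57. After quantile normalization the median was 0.035 for the transcription factors beside ATF4 and -0.53 for the endoplasmic reticulum genes. Without overlap, 3 of the 10 genes were lower under either rescaling and between 4 and 6 with 1 mouse left out. The share over all tested genes was not computed for these fits. Groups also separate more easily with fewer mice, so these counts cannot be set against the share from all 6 libraries. The cause of these shifts was not tested.

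Mice of the groups share replicate numbers, but no source ties same-numbered mice together. After subtracting group means, WT and Mtg16-/- libraries of equal number correlated at 0.429, 0.0753 and 0.237 (Pearson's r, across genes). Those of unlike number correlated between -0.331 and 0.198. Only WT replicate 2 correlated best with another number, at 0.198 with Mtg16-/- replicate 3. Whether the replicate numbers mark a shared origin was not tested. A fit with the replicate block called 1201 genes (816 lower, 385 higher), among them Creld2 and 2 of the 10 genes, Phgdh (adjusted p = 0.0495) and Ddit3 (adjusted p = 0.066, limma).

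Without read numbers, the precision at low levels such as those of Chac1 and Trib3 cannot be given.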
